A study of Mus musculus with 5 samples.

Results

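Cytochrome P450 genes of mouse intestinal epithelium were described here across sorted cells and single cells. The members were all genes whose symbol is Cyp followed by a digit. Of 87 such symbols, 5 ending in -ps were left out as pseudogenes, which left 82 members of the 22042 genes listed for the sorted cells. Of these, 81 were found in the droplet matrix and 59 had a unique molecular identifier (UMI) in a kept cell. In the sorted cells, 43 members had a mean of at least 10 normalized counts in a group and 39 stayed under that level in all groups.

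The sorted cells came from the small intestine epithelium of C57Bl/6J mice with the genotype Cck-Cre; R26-LSL-tdTomato, aged 6 to 8 weeks. Cre driven by Cck removes a stop in front of tdTomato, so the label marks cells that express or have expressed the gut hormone gene Cck, and all groups carry both alleles. Of 6 mice, 3 had an overnight fast, and the other 3 were given Ensure, a liquid nutrition, after the fast. From each mouse both gates were sequenced, tdTomato+ cells as CCK+ and tdTomato- cells as CCK-, which makes 12 libraries in 4 groups of 3. Because the label is permanent, CCK+ also covers cells that no longer express Cck and any descendants. The droplet library pooled tdTomato+ cells of 4 C57Bl/6J mice with the genotype Neurog3-Cre; R26-LSL-tdTomato, aged 6 weeks and without treatment, in which descendants of enteroendocrine progenitors are labeled.

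Cytochrome P450 enzymes are heme-containing monooxygenases that insert 1 atom of oxygen into their substrates. Most sit in the endoplasmic reticulum and take electrons from P450 reductase, whereas a few sit in mitochondria and take them from ferredoxin. In the gut, enzymes of families 1 to 3 oxidize drugs and dietary chemicals in absorptive enterocytes, and other members act on arachidonic acid, fatty acids, sterols, bile acids, vitamin D and retinoic acid.

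All of these enzymes hold their heme through a cysteine. Its coding stretch is shown for the genes on which the results turn, because it is what these otherwise divergent members share. The pattern searched in the translated coding sequences was phenylalanine, any 2 residues, glycine, any 3 residues, cysteine, any residue and glycine. It was found in 77 of 81 members with a coding sequence in GENCODE M21 (build GRCm38). The 30 bases are given 5′ to 3′ on the coding strand, with the cysteine codon in capitals.
Cyp2j5: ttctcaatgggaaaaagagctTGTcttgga
Cyp2j6: ttctcaatgggaaagcgagctTGCctggga
Cyp2j12: ttctcattgggaaagagagctTGCcctgga
Cyp2f2: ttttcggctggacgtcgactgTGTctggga
Cyp3a13: tttgggagtggaccaaggaacTGCattggc
Cyp3a25: tttggaaatggacccaggaacTGCataggc
Cyp27a1: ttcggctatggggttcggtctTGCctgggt
Cyp51: tttggagctgggcgtcatcgtTGTgttgga
In Cyp27a1 the stretch lies at chr1:74737320-74737349 on the plus strand, within exon 8 of 9. In Cyp3a13 it lies at chr5:137895267-137895296 and in Cyp3a25 at chr5:145981468-145981497, both on the minus strand within exon 12 of 13. In the genes Cyp2j5, Cyp2j6, Cyp2j12, Cyp2f2 and Cyp51 it is divided between 2 exons, and 23 of the 77 stretches lay within 1 exon.

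The libraries were first checked against their labels. Cck reached 14837 to 32592 normalized counts in CCK+ libraries and 27.6 to 86.0 in CCK- libraries. All 12 of 12 enteroendocrine markers were higher in CCK+ cells, by a median of 6.24 on the log2 scale. CCK+ libraries were not free of other cells' transcripts. The summed normalized count of 10 enterocyte markers was 145610 to 361120 in CCK+ libraries against 393580 to 560400 in CCK- libraries, and 8 of 10 were lower in CCK+ cells. In addition, 8 of 9 immune markers were higher in CCK+ cells, by a median of 3.33, with sums of 7741 to 13534 against 2977 to 9546. The library CCK+ fasted 2 had the lowest enteroendocrine sum of its gate (100910) and the highest enterocyte sum (361120). Normalized counts added up to 7061200 to 9868200 in CCK+ libraries and 9900600 to 11371000 in CCK- libraries on the authors' scale, which is not a depth in reads.

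Cytochrome P450 genes took a smaller share of CCK+ than of CCK- libraries. Their summed normalized counts made up 0.209 to 0.398% of CCK+ libraries and 0.399 to 0.626% of CCK- libraries, with no overlap. The comparison asks which members set cells with a Cck history apart from the rest of the epithelium. Over both feeding states, 32 of 82 members passed an adjusted p of 0.05 in limma's moderated test on log2(normalized count + 1) with Benjamini-Hochberg adjustment over all genes, against 33.7% of all genes. Of these, 7 members were higher in CCK+ cells (19.6% of all genes) and 25 were lower (14.1% of all genes). The median difference over the 82 members was -0.28 and that over all genes 0.09 on the log2 scale. When all libraries were scaled to equal totals, which moved the median of all genes to 0.36, 10 members were higher and 17 lower. Among all 22042 genes, 6516 were higher and 1232 lower at equal totals. The 3 added higher calls among the members were Cyp2u1, Cyp2c70 and Cyp2d13, named here after their values were seen. Cyp2c70 and Cyp2d13 stayed under 10 normalized counts in all libraries, with overlapping ranges on the authors' scale. Cyp2c70 had 1.2 to 7.5 in CCK+ against 0 to 2.5 in CCK- libraries, and Cyp2d13 had 2.9 to 8.5 against 0 to 6.0.

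The enzymes of drug and xenobiotic oxidation were the largest group. Of 39 such members, 14 were lower in CCK+ cells, 1 was higher and 24 did not pass the test. Of all genes, 14.1% were lower and 19.6% higher. Only 18 of the 39 had a mean of at least 10 normalized counts in a group. Cyp3a13, a mouse member of the family that oxidizes a large share of drugs, was among the members with the highest counts. It measured 3801, 7997 and 6086 normalized counts in CCK+ cells of fasted mice and 3284, 1812 and 1832 in CCK+ cells of refed mice. In CCK- cells it measured 11741, 13518 and 13433 in fasted mice and 9033, 7933 and 7107 in refed mice. Within each feeding state the gates did not overlap, and the log2 fold change over both was -1.51 ± 0.19 (SE, n = 6 and 6 libraries, adjusted p = 2.3e-05).

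Cyp3a25 was lower by the same order. Its 6 CCK+ libraries ranged from 168 to 756 (median 529) and its 6 CCK- libraries from 831 to 2453 (median 1695), with a log2 fold change of -1.85 ± 0.21 (SE, adjusted p = 7.9e-06 in limma). The 2 ranges did not overlap. Its coding sequence is 97.5% identical to that of Cyp3a59, so reads could be divided between the 2 genes and the level of each is uncertain. Cyp3a11 spread more widely, from 1180 to 7030 in CCK+ and from 4628 to 12581 in CCK- libraries, with a difference of -1.52 ± 0.25, and it is 95.2% identical to Cyp3a41a in its coding sequence, which leaves the same doubt.

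Members of the Cyp2c family, which act on drugs and on arachidonic acid, were lower as well. Cyp2c55 ranged from 144 to 464 in CCK+ libraries (median 311) and from 578 to 1293 in CCK- libraries (median 912), and its difference was -1.66 ± 0.19 (SE, adjusted p = 1.1e-05 in limma). Cyp2c65 was steadier among CCK+ libraries, from 892 to 1175 against 1391 to 2434, a difference of -0.88 ± 0.11. Cyp2c66 (-1.63 ± 0.30), which is 96.3% identical to Cyp2c65 in its coding sequence, and Cyp2c68 (-0.54 ± 0.10), which is 97.2% identical to Cyp2c67, carry the same doubt on read assignment. The difference of Cyp2c68 no longer passed the test with equal library totals (-0.15).

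Cyp2b10, a target of the xenobiotic receptor Nr1i3 (CAR), was 1.21 ± 0.17 lower on the log2 scale, and the differences of Cyp2d26 (-0.84 ± 0.14) and Cyp2d22 (-0.88 ± 0.18) were smaller; that of Cyp2d22 did not pass with equal totals. Cyp1a1, which is induced through the aryl hydrocarbon receptor, was 1.46 ± 0.38 lower, although its ranges overlapped (34.5 to 400.5 against 140.4 to 866). Its call was lost without CCK+ refed 2 (adjusted p = 0.059 in limma) or CCK+ refed 3 (adjusted p = 0.051). Cyp2c29 had ranges of 73.1 to 922 against 294 to 1919, and its difference of -1.30 ± 0.45 kept its call in 1 of 12 fits that each left out 1 library, the one without CCK- fasted 2.

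The exception in this group was Cyp2f2, which oxidizes small aromatic compounds and is known from airway club cells. It measured 67.2, 2.6 and 49.8 in CCK+ cells of fasted mice and 59.2, 73.5 and 82.0 in those of refed mice, and at most 3.8 in CCK- cells. CCK+ fasted 2 alone overlapped with the CCK- libraries. The difference was 4.42 ± 0.70 over both states (adjusted p = 0.00018 in limma).

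**Figure D1:**
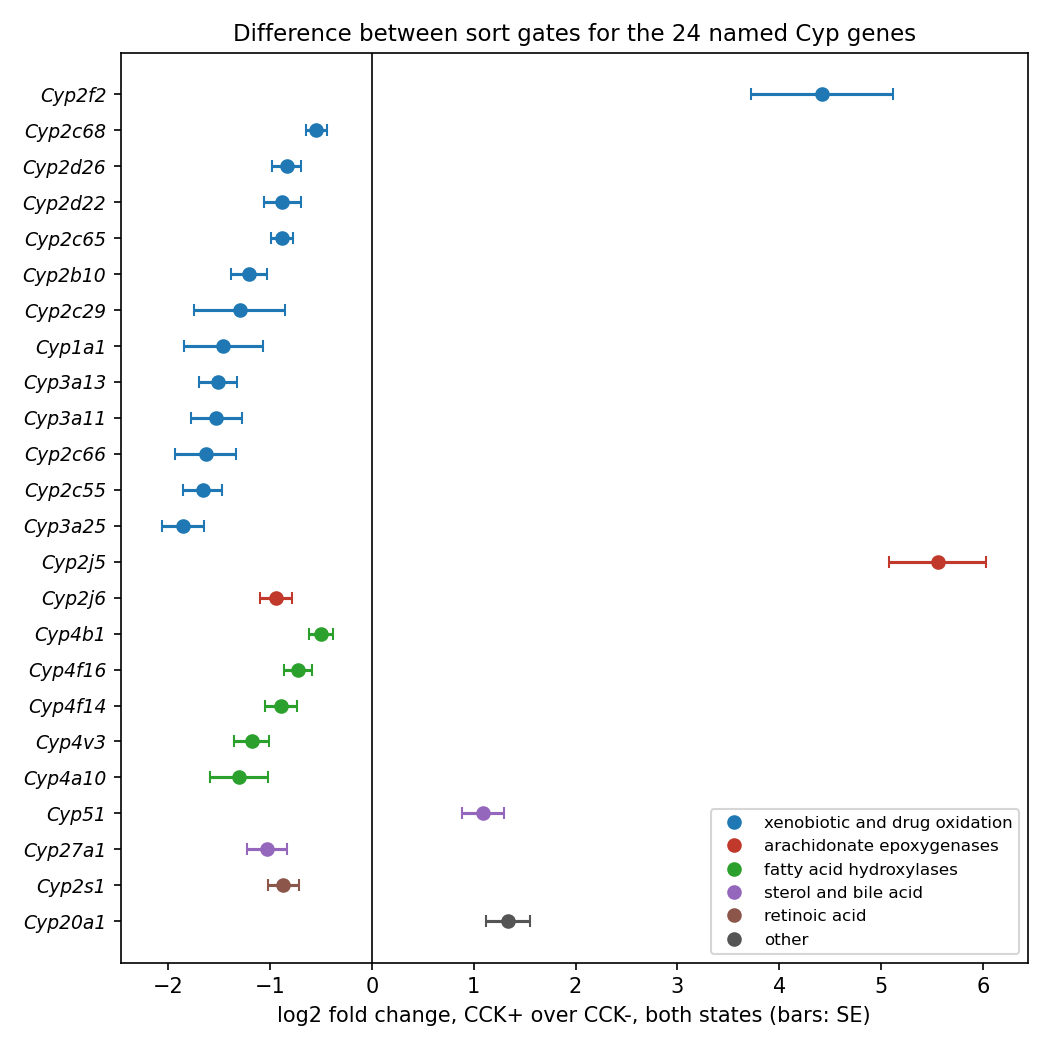
Log2 fold change between CCK+ and CCK- cells over both feeding states (x axis, positive where CCK+ is higher) for the 24 named genes, grouped by role, with bars for the SE (6 against 6 libraries). All 24 passed the test, which follows in part from naming many of them by their calls between the gates. Of the 24, 20 lie left of 0 and Cyp2f2, Cyp2j5, Cyp51 and Cyp20a1 lie right of it, with Cyp2j5 farthest at 5.55.

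The Cyp2j genes, whose products convert arachidonic acid to epoxyeicosatrienoic acids, went in both directions. All 7 lie within 1 stretch on the minus strand of chromosome 4, from chr4:96027534 to chr4:96664154 (GRCm38). Cyp2j5 (chr4:96628773-96664154) measured 79.5, 26.7 and 135 normalized counts in CCK+ cells of fasted mice and 169, 77.6 and 64.4 in those of refed mice. In CCK- cells it measured 0, 1.2 and 1.1 in fasted and 1.1, 0 and 1.5 in refed mice. Every CCK+ library lay above every CCK- library. The log2 fold change was 5.55 ± 0.48 (SE, n = 6 and 6, adjusted p = 7.1e-07 in limma), and since the CCK- values lie near 0, its size depends on the pseudocount of 1.

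Cyp2j6 (chr4:96516138-96553661), a neighbor with 78.3% identity to Cyp2j5 in coding sequence, went the other way. Its CCK+ libraries ranged from 368 to 705 (median 653) and its CCK- libraries from 823 to 1599 (median 1095), without overlap, and its difference was -0.94 ± 0.16 (adjusted p = 0.00029). Cyp2j12 (chr4:96099318-96141152) was called higher in CCK+ cells, with 2.98 ± 0.48 on the log2 scale; it fell below the level required by the rule for named genes and was chosen after its values were seen. It measured 1.4, 0 and 4.9 in CCK+ cells of fasted and 33.9, 54.0 and 16.2 in those of refed mice, and at most 0.95 in CCK- cells. The other 4 Cyp2j genes did not pass the test, and Cyp2j9 had a difference of 0.07 ± 0.28.

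Fatty acid hydroxylases, mainly the Cyp4 family, oxidize the end of fatty acid and eicosanoid chains. Of 18 such members, 7 were lower in CCK+ cells (14.1% of all genes) and 1 was higher (19.6% of all genes). Only 11 of the 18 had a mean of at least 10 normalized counts in a group. Cyp4f14, an omega-hydroxylase of leukotriene B4, ranged from 2537 to 5924 in CCK+ and from 5388 to 8588 in CCK- libraries, a difference of -0.89 ± 0.16. Cyp4v3 had a difference of -1.18 ± 0.17, with 1736 to 5632 against 5568 to 9895. The differences of Cyp4a10 (-1.30 ± 0.28), Cyp4f16 (-0.73 ± 0.14) and Cyp4b1 (-0.50 ± 0.12) were also called, and those of Cyp4f16 and Cyp4b1 were lost with equal library totals. Cyp4a10 is 97.2% identical to Cyp4a32 and 96.6% to Cyp4a31 in its coding sequence, so its level is uncertain in the same way as that of Cyp3a25. The member called higher, Cyp4f18, stayed under 10 normalized counts in all libraries and kept its call in 2 of 12 fits without 1 library, those without CCK+ fasted 2 or CCK+ refed 1.

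Among 5 sterol and bile acid enzymes, 2 were higher (19.6% of all genes) and 1 was lower (14.1% of all genes) in CCK+ cells. Cyp51, the lanosterol demethylase of cholesterol synthesis, was 1.10 ± 0.21 higher on the log2 scale, with means of 275 ± 71 and 1096 ± 307 (SD, n = 3) in CCK+ cells of fasted and refed mice against 145 ± 46 and 459 ± 126 in CCK- cells. Cyp27a1, the mitochondrial sterol 27-hydroxylase of bile acid synthesis, was 1.03 ± 0.19 lower. Its ranges over both states overlapped (58.5 to 716 against 208 to 963), whereas within each state the gates did not overlap. Within single states, Cyp27a1 was called lower in refed mice and was not called in fasted mice. Cyp39a1, an oxysterol 7-alpha-hydroxylase, was higher by 1.17 ± 0.40 at a low level, 14.3 to 26.6 against 2.6 to 12.3, and lost its call without CCK+ fasted 1, CCK+ refed 1 or 2, or CCK- refed 1 or 3 (adjusted p from 0.059 to 0.068 in limma). Of 4 retinoic acid enzymes 2 were lower, against 14.1% of all genes, among them Cyp2s1 by 0.87 ± 0.15. Cyp20a1, a member without a settled function, was 1.33 ± 0.22 higher, with 87.8 to 194 against 34.2 to 66.4 and no overlap. No vitamin D enzyme (of 2) and no enzyme of steroid hormone synthesis (of 5) was called in either direction, against 33.7% of all genes. Only 1 of these vitamin D enzymes and 2 of the steroid enzymes had a mean of at least 10 normalized counts in a group.

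**Figure D2:**
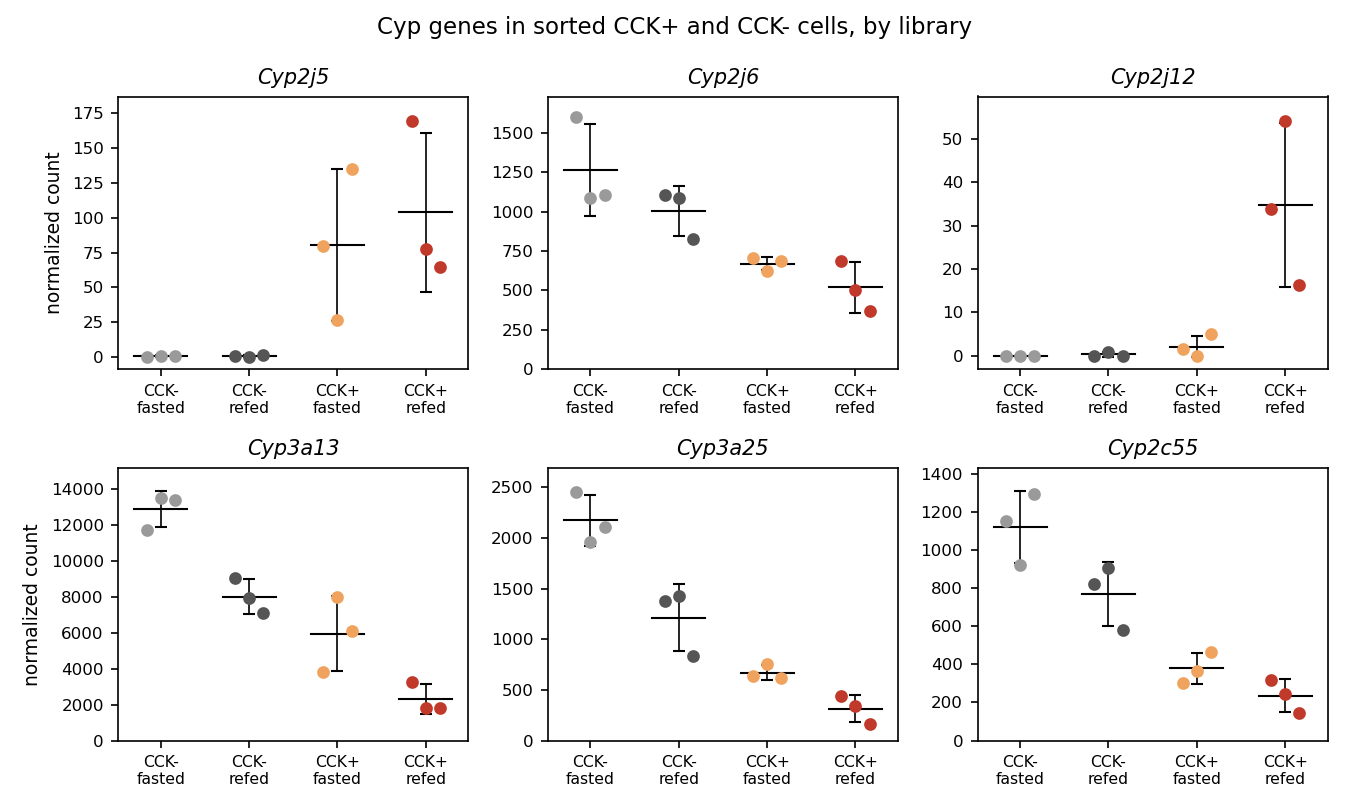
Normalized count (y axis, from 0) of 6 genes in each of the 12 libraries, by sort gate and feeding state; points are libraries, the line is the mean and the bar the SD (n = 3). Cyp2j5 is at most 1.5 in CCK- libraries and at least 26.7 in CCK+ libraries, Cyp2j12 reaches 16.2 to 54.0 in CCK+ cells of refed mice, and the other 4 genes are lower in CCK+ cells.

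Within single feeding states, lower calls also outnumbered higher ones among the members, but not among all genes. In fasted mice, 20 members were called (4 higher, 16 lower) against 18.2% of all genes (2459 higher, 1553 lower). With equal library totals 4 members were higher and 8 lower, against 3309 and 560 of all genes. In refed mice 30 members were called (5 higher, 25 lower) against 25.9% of all genes (3376 higher, 2328 lower). With equal library totals 10 members were higher and 11 lower, against 5392 and 840 of all genes. The count in fasted mice was the less steady. It was 7 without CCK+ fasted 1, 11 without CCK- fasted 1, and 13 without CCK- fasted 2.

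Genes that work with these enzymes were called lower in CCK+ cells more often than higher on the authors' scale, and for the regulators this balance was lost with equal library totals. Of all genes, 14.1% were lower and 19.6% higher on the authors' scale. With equal library totals, 1232 of all 22042 genes were lower and 6516 higher. Of 27 conjugating enzymes and carboxylesterases, which act after or beside P450 oxidation, 19 were lower and 3 higher (median -1.17), among them the glucuronosyltransferase Ugt1a1 (-1.71 ± 0.17) and the sulfotransferase Sult1b1 (-1.81 ± 0.17). Of 12 electron donors and heme genes, 6 were lower and 1 higher, with cytochrome b5 (Cyb5a) at -1.12 ± 0.14. Of 25 measured regulators, 13 were lower and 3 were higher, whereas with equal library totals 5 were lower and 5 higher. The nuclear receptors Nr1i2 (-0.48 ± 0.13) and Nr1i3 (-0.69 ± 0.19) lost their calls at equal totals (-0.09 and -0.29). Higher regulators included Srebf2, the main activator of cholesterol synthesis, at 0.86 ± 0.13, and Srebf1 at 1.25 ± 0.21. Of 6 efflux transporters, 3 were lower and Abcc4 was higher by 3.73 ± 0.39. With equal totals the lower and higher calls were 17 and 4 for conjugation, 4 and 2 for electron donors and heme, and 2 and 1 for efflux. The sums of enterocyte and immune markers given above moved with the gate. Of 6 crypt and cycling markers, 3 were higher in CCK+ cells (median 0.84) and 6 with equal library totals (median 1.24), with sums of 1565 to 3982 against 1025 to 2672. The part of these markers in the differences was not tested. In sorted bulk cells, fewer cells of a type and less RNA per cell cannot be told apart.

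The droplet library gave the levels per cell class. Cells were kept with more than 1000 genes and under 10% mitochondrial UMIs, which left 9451 cells with a median of 5984 UMIs. A cell was Cck-high with at least 500 Cck UMIs per 10000 (1246 cells), Tph1-high with at least 10 Tph1 UMIs per 10000 (2760 cells), Tph1 being the enzyme of serotonin synthesis, and enterocyte-gene-high with at least 100 UMIs per 10000 of Fabp1, Rbp2, Mttp, Alpi and Reg1 together (769 cells). A cell could belong to more than 1 class, and 268 were both Cck-high and Tph1-high. Median depth was 6296, 3366 and 8517 UMIs in the 3 classes. The enterocyte-gene-high cells also held tuft transcripts and the immune markers Cd74 and Ptprc. The 5 tuft markers summed to 8.95 UMIs per 10000 there, against 0.576 in Cck-high cells, 1.06 in Tph1-high cells and 1.32 in free RNA, and the immune markers to 4.47 against 0.963, 1.06 and 2.31. Of the immune sum of 4.47, Cd74 made 3.56 and Ptprc 0.338. All other immune markers lay below free RNA in this class, such as Gzma at 0.386 against 0.832 and Cd3g at 0.0217 against 0.115. The part of these transcripts in the differences between classes was not tested. With 1 library no test was possible, and all intervals below cover counting error only.

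All members together took 7.95 UMIs per 10000 in Cck-high cells (95% Poisson interval 7.75 to 8.14), 6.99 in Tph1-high cells (6.83 to 7.14) and 14.2 in enterocyte-gene-high cells (13.9 to 14.5). The 5004 cells in none of the classes held 3.29 (3.24 to 3.35), and in these cells goblet markers summed to 3234, Paneth markers to 612 and enteroendocrine markers to 267 UMIs per 10000, the last including the hormone genes Ghrl (97.2), Gip (72.4) and Sst (19.6). Barcodes with at most 100 UMIs, taken as free RNA, held 5.47 (5.15 to 5.80). At least 1 UMI of a member was present in 97.4% of Cck-high, 86.6% of Tph1-high and 95.1% of enterocyte-gene-high cells. These shares depend on depth, which was lowest in Tph1-high cells, so they do not compare the classes.

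Cyp2j5 was concentrated in Cck-high cells. Its level was 0.734 UMIs per 10000 (0.676 to 0.795) in Cck-high cells, 0.162 (0.139 to 0.187) in Tph1-high cells and 0.0078 (0.0025 to 0.0181) in enterocyte-gene-high cells, against 0.0697 in free RNA. The ratio of Cck-high to enterocyte-gene-high cells was 94.7 (40.3 to 293), from 604 and 5 UMIs. A UMI of Cyp2j5 was found in 24.4% of Cck-high cells and in 0.52% of enterocyte-gene-high cells, which were deeper. After each cell was thinned to 2000 UMIs these shares were 9.63% and 0%. In Tph1-high cells that were in no other class the level was 0.0108, so the value of 0.162 came mostly from cells that were also Cck-high.

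Cyp2j12 and Cyp2f2, which were also higher in sorted CCK+ cells, were found in a different class. Cyp2j12 had 0.0966 UMIs per 10000 (0.0794 to 0.116) in Tph1-high cells against 0.0049 in Cck-high cells, 0.0078 in enterocyte-gene-high cells and 0.0149 in free RNA. Cyp2f2 had 0.203 (0.178 to 0.231) in Tph1-high cells against 0.0182, 0.0109 and 0.0249. In the sorted CCK+ cells, Tph1 itself measured 10077 ± 5242 normalized counts in fasted and 17599 ± 5176 in refed mice (SD, n = 3), a difference that did not pass the test. Cyp20a1 stood at 0.210 in Tph1-high, 0.153 in Cck-high and 0.0543 in enterocyte-gene-high cells.

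3 genes that were lower in sorted CCK+ than in CCK- cells on the authors' scale, of which Cyp4b1 and Cyp2c68 lost that call with equal totals, had a higher level in Cck-high than in enterocyte-gene-high cells of the droplet library. Cyp2j6 had 1.57 UMIs per 10000 (1.48 to 1.65) in Cck-high and 0.732 (0.667 to 0.801) in enterocyte-gene-high cells. Cyp4b1 had 1.04 (0.975 to 1.12) and 0.177 (0.146 to 0.212). Cyp2c68 had 1.19 (1.12 to 1.27) and 0.558 (0.502 to 0.619). All 3 levels in Cck-high cells exceeded those in free RNA, which were 0.518, 0.234 and 0.309. The CCK- sort holds all unlabeled epithelial cells, whereas the enterocyte-gene-high cells come from a Neurog3 lineage, so the 2 comparisons differ in their reference cells.

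Several genes had their highest level in enterocyte-gene-high cells. Cyp4f14 had 2.87 UMIs per 10000 there, from 1849 UMIs, 0.311 in Cck-high and 0.183 in Tph1-high cells. Cyp3a13 had 2.17 (2.06 to 2.29), 0.255 and 0.287. Cyp2b10 had 0.850 (0.780 to 0.924), 0.0292 and 0.0351, and Cyp3a25 had 0.412 (0.364 to 0.465), 0.0085 and 0.0176. In Cck-high cells all 4 lay below their levels in free RNA, which were 0.389, 0.707, 0.139 and 0.0349. The part of free RNA in these values was not tested. Cyp2d26 had 0.972 (0.897 to 1.05) in enterocyte-gene-high, 0.522 in Tph1-high and 0.175 in Cck-high cells, against 0.279 in free RNA. Cyp27a1 was low in all classes, with 0.116 (0.0915 to 0.146) in enterocyte-gene-high cells, 0.0401 in Cck-high cells and 0.105 in free RNA. Cyp2c65 was not among these genes, with 0.737, 1.10 and 1.09 in Cck-high, Tph1-high and enterocyte-gene-high cells. Its ratio to enterocyte-gene-high cells was 1.01 (0.922 to 1.11) in Tph1-high and 0.677 (0.606 to 0.755) in Cck-high cells.

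**Figure D3:**
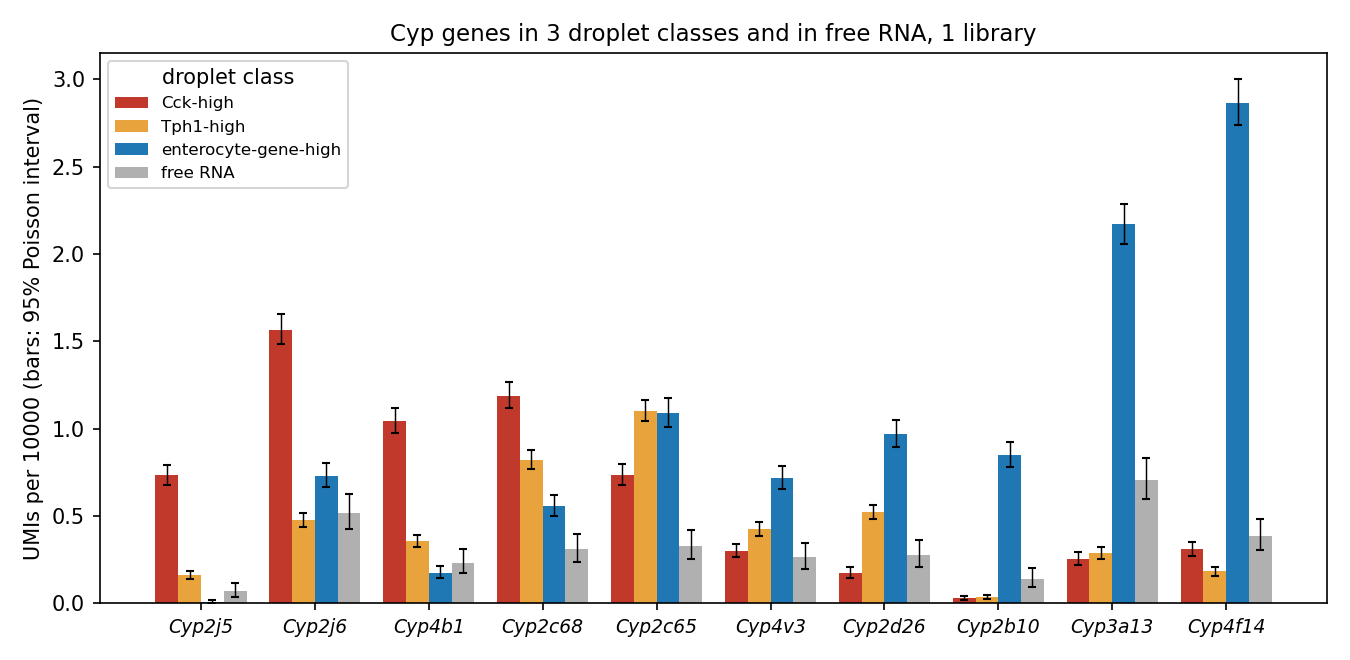
UMIs per 10000 (y axis, from 0) of the 10 members with the highest levels, in 3 cell classes and in free RNA of the 1 droplet library; error bars are 95% Poisson intervals and cover counting error only. Cyp2j5, Cyp2j6, Cyp4b1 and Cyp2c68 are highest in Cck-high cells, and Cyp4f14 (2.87) and Cyp3a13 (2.17) in enterocyte-gene-high cells.

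Few members differed between refed and fasted mice. In CCK+ cells, 6 of 82 passed the test against 2.55% of all genes, 2 of them higher in refed mice (1.31% of all genes) and 4 lower (1.23%). In CCK- cells, 3 passed against 1.23% of all genes, 2 higher (0.708%) and 1 lower (0.526%). Both gates come from the same mice, so these are not independent comparisons. The median difference over all members was -0.09 in CCK+ and -0.10 in CCK- cells, against 0.01 and 0 over all genes. With equal library totals the median of all genes moved to 0.20 in CCK+ cells and to 0.01 in CCK- cells. The counts of members stayed at 2 and 4 in CCK+ cells, against 625 higher and 184 lower of all genes. In CCK- cells 2 members were higher and 2 lower, against 169 and 98 of all genes. The added member was Cyp2s1 (-0.77).

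Cyp27a1 was the member with the lowest adjusted p in both gates. In CCK+ cells it measured 448, 716 and 576 normalized counts in fasted mice and 148, 87.5 and 58.5 in refed mice. In CCK- cells it measured 939, 939 and 963 in fasted mice and 208, 213 and 274 in refed mice. Fasted and refed libraries did not overlap in either gate. The log2 fold change was -2.63 ± 0.27 in CCK+ cells (SE, n = 3 and 3, adjusted p = 0.0015 in limma) and -2.04 ± 0.27 in CCK- cells (adjusted p = 0.0020). The 2 responses differed by -0.59 ± 0.39 (interaction, adjusted p = 0.80 in limma).

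Cyp51, the cholesterol synthesis gene, went the other way in both gates. In CCK+ cells it measured 350, 208 and 269 in fasted mice and 1167, 1361 and 759 in refed mice, a difference of 1.98 ± 0.29 (adjusted p = 0.0043 in limma). In CCK- cells it measured 195, 134 and 105 in fasted mice and 515, 547 and 314 in refed mice, a difference of 1.66 ± 0.29 (adjusted p = 0.014 in limma). Refed libraries lay above fasted ones in both gates. In CCK+ cells the call was lost without CCK+ refed 2 alone (adjusted p = 0.063 in limma). In CCK- cells it was lost without CCK+ fasted 3, CCK+ refed 1 or 2, CCK- fasted 2 or 3, or CCK- refed 1 or 2 (adjusted p from 0.051 to 0.12). The interaction was 0.32 ± 0.41 (adjusted p = 0.87 in limma). Srebf2, the activator of this pathway, was higher in refed mice in CCK- cells by 0.87 ± 0.18 (adjusted p = 0.036 in limma, lost with equal library totals at 0.060), with 281 ± 63 against 508 ± 49 (SD, n = 3), and measured 553 ± 47 and 844 ± 128 in fasted and refed CCK+ cells, where it did not pass the test.

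The promoters of these 2 genes, from 250 bases before to 50 after the start, are shown because they differed in opposite directions between refed and fasted mice in both gates. They come from RefSeq on GRCm38.p6 and run 5′ to 3′ on the coding strand, Cyp27a1 at chr1:74713285-74713584 on the plus strand and Cyp51 at chr5:4104648-4104947 on the minus strand. Capitals mark CCAAT and GCGTG on either strand.
Cyp27a1: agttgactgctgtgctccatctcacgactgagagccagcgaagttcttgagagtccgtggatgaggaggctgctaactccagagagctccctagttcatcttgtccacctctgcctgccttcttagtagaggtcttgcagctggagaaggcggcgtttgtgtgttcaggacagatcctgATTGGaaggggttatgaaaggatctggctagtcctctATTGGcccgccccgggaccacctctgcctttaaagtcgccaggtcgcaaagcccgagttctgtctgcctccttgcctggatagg
Cyp51: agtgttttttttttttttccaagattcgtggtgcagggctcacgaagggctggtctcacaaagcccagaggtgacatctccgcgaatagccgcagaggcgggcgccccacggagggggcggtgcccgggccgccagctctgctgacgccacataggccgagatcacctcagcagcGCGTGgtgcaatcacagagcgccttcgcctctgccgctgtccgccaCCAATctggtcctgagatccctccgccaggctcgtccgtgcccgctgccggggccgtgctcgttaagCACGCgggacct
The letters CCAAT were present in both and in 31 of 66 members with a promoter (47.0%), against 37.9% of all 27025 promoters. GCGTG was present in Cyp51 and in 16 of 66 members (24.2%), against 32.5% of all. The sterol element letters TCACNCCAC were found in 2 of 66 members, against 1.22% of all, and in neither of these 2 promoters within the window. Other forms of the sterol element were not searched, so their presence in either promoter is not settled.

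3 enzymes of drug oxidation were lower in refed mice in CCK+ cells. Cyp3a13, with the values given above, changed by -1.36 ± 0.27 (adjusted p = 0.017 in limma). Cyp2b10 measured 1176, 1238 and 1586 in fasted and 876, 486 and 398 in refed mice, a change of -1.25 ± 0.25 (adjusted p = 0.017). Cyp3a25 measured 634, 756 and 622 in fasted and 436, 338 and 168 in refed mice, a change of -1.19 ± 0.29 (adjusted p = 0.044). For all 3 the libraries of the 2 states did not overlap. In CCK- cells the differences were -0.69 ± 0.27 for Cyp3a13, -0.99 ± 0.25 for Cyp2b10 and -0.88 ± 0.29 for Cyp3a25, none of which passed the test, and fasted and refed libraries did not overlap there either. The interactions had adjusted p of 0.79, 0.87 and 0.86 in limma.

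These 3 calls depended on single libraries. That of Cyp3a25 was kept in 1 of 12 fits that each left out 1 library, the one without CCK+ refed 1 (adjusted p in the others from 0.053 to 0.19 in limma), and was lost with equal library totals (-0.97). Those of Cyp2b10 and Cyp3a13 were each kept in 8 of 12 and lost without either CCK+ fasted 2 or 3 or CCK+ refed 2 or 3, with adjusted p of up to 0.13 and 0.14 in limma. The number of members called in CCK+ cells was 1 without CCK+ refed 2, 2 without CCK+ fasted 2 and 3 without CCK+ refed 3, and it was 0 when only the 2 CCK+ groups were fitted, where no gene passed.

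Among 25 measured regulators of these enzymes, 21 did not pass the test for refeeding in CCK+ cells. The other 4 were lower in refed mice, against 1.23% of all genes. They were the xenobiotic receptors Nr1i2 (PXR, -1.17 ± 0.18) and Nr1i3 (CAR, -1.20 ± 0.26), Hnf4g (-1.47 ± 0.21) and the vitamin D receptor Vdr (-1.01 ± 0.19). Nr1i2, Hnf4g and Vdr were lower in CCK- cells too, with differences of -0.81 ± 0.18, -1.18 ± 0.21 and -0.84 ± 0.19. None of the 27 conjugating enzymes was called in either gate, where 2.55% (CCK+) and 1.23% (CCK-) of all genes were called. The efflux transporter Abcb1a was lower in both gates, with differences of -0.73 ± 0.16 in CCK+ and -0.77 ± 0.16 in CCK- cells that did not pass with equal library totals. The enterocyte marker sum of CCK+ libraries was 213470 to 361120 in fasted and 145610 to 242240 in refed mice, and the enteroendocrine sum 100910 to 230910 and 254400 to 324890; 1 of 10 enterocyte and 0 of 12 enteroendocrine markers were called by the same limma test. In CCK- cells the enterocyte sum was 410700 to 560400 in fasted and 393580 to 448610 in refed mice, and none of the 10 was called. The sum of 6 crypt and cycling markers did not overlap between states in either gate, with 1565 to 2963 in fasted and 3022 to 3982 in refed mice in CCK+ cells and 1025 to 1438 and 2059 to 2672 in CCK- cells. Of these markers 1 was called higher in CCK+ cells (median 0.96) and 2 in CCK- cells (median 1.01). The 5 Paneth markers had median differences of 1.35 in CCK+ and 1.18 in CCK- cells, and none was called. The part of all these markers in the differences was not tested.

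Cyp2j12 was higher in refed mice in CCK+ cells, with the values given above, by 3.72 ± 0.67 (adjusted p = 0.012 in limma) and without overlap, and by 4.18 or 1.81 with a pseudocount of 0.5 or 10. The difference lost its call without CCK+ fasted 2 (adjusted p = 0.052) or CCK+ refed 2 (adjusted p = 0.077). In CCK- cells it was listed at 0 in 5 of 6 libraries. Its neighbor Cyp2j5 had 80.4 ± 54.1 in fasted and 103.6 ± 56.8 in refed mice (SD, n = 3), a difference of 0.51 ± 0.68 that did not pass.

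In CCK- cells, Cyp4f16, a fatty acid hydroxylase, was higher after refeeding. It measured 634, 712 and 602 in fasted and 1359, 2005 and 1669 in refed mice, a difference of 1.35 ± 0.20 (adjusted p = 0.0035 in limma). In CCK+ cells it measured 420, 682 and 578 in fasted and 829, 682 and 644 in refed mice, a difference of 0.38 ± 0.20 that did not pass. The interaction of -0.98 ± 0.28 did not pass either (adjusted p = 0.64 in limma), so a difference between the gates was not shown. Its coding sequence is 91.9% identical to that of Cyp4f37.

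**Figure D4:**
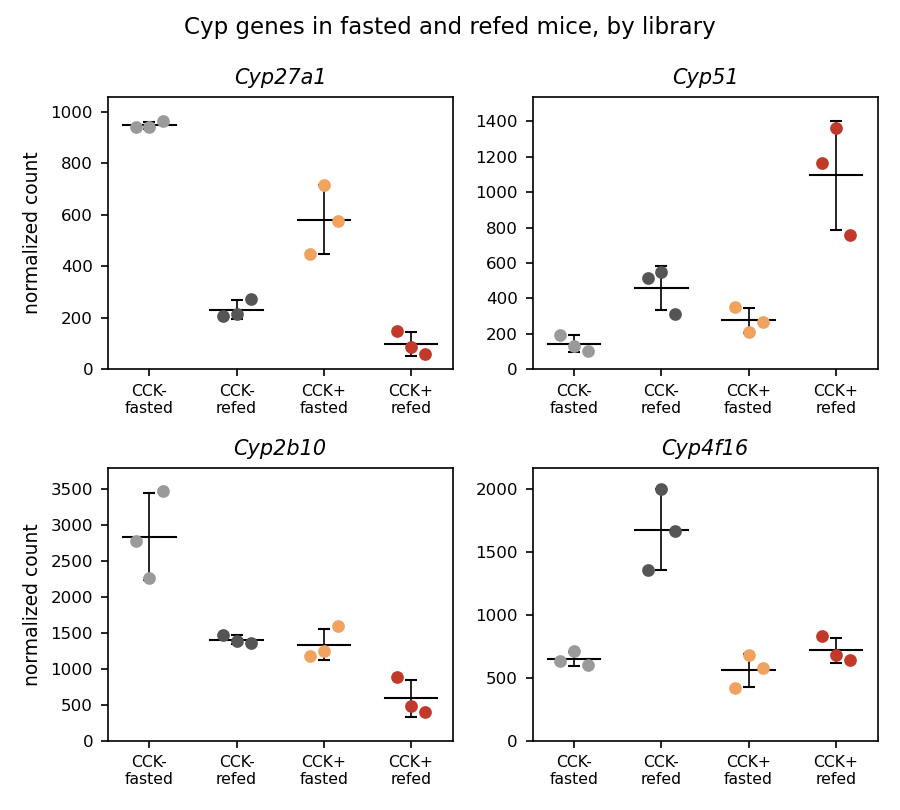
Normalized count (y axis, from 0) of 4 genes in each of the 12 libraries, by sort gate and feeding state; points are libraries, the line is the mean and the bar the SD (n = 3). Cyp27a1 is lower and Cyp51 higher in refed mice in both gates, Cyp2b10 is lower, and Cyp4f16 reaches 1359 to 2005 in CCK- cells of refed mice.

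**Figure D5:**
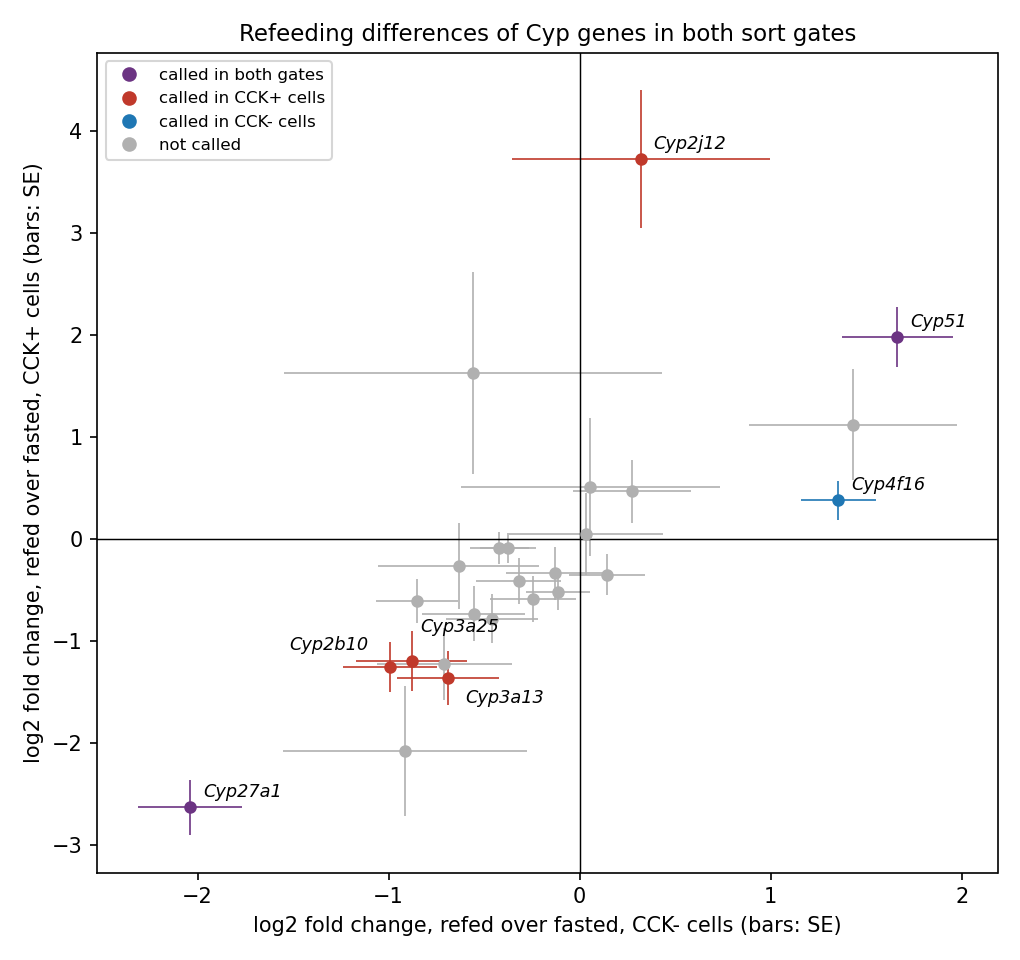
Log2 fold change of refed over fasted mice in CCK- cells (x axis) and CCK+ cells (y axis) for the 24 named genes and Cyp2j12, with bars for the SE (n = 3 and 3 per gate); colors mark the gate in which the test was passed, and both axes come from the same 6 mice. Cyp27a1 (-2.04 and -2.63) and Cyp51 (1.66 and 1.98) passed in both gates.

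No member passed the interaction test for a different response to refeeding in the gates, against 0.00454% of all genes (1 gene). At an unadjusted p of 0.05, 8 members and 1378 genes passed in limma, and with mouse as a fixed term, 10 members and 1714 genes.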

How the data were processed

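For the sorted cells, the deposited signal values are gene counts that the authors divided by DESeq2 normalization factors. Reads had been trimmed (Trim Galore 0.6.7), quantified with Salmon 1.6.0 against the GRCm39 transcriptome and summed per gene. Whole reads could not be recovered, so depth in reads is unknown and no count model was used. For the droplet library, the deposited UMI counts were made by the authors with Cell Ranger 2.0.1 on mm10, without normalization or cell calling.

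limma 3.58.1 in R 4.3.3 was fitted to log2(normalized count + 1) of all 22042 genes, with 1 mean for each of 4 groups, a mean-variance trend and Benjamini-Hochberg adjustment. A fold change on this scale understates the change of low genes. Replicate numbers pair the gates by mouse. The correlation of deviations from group means was 0.0773 to 0.124 for the same mouse and at most -0.0184 otherwise. Fits with mouse as a block were run beside the main one. Droplets were read with Python 3.11.15 and scipy 1.17.1, and sequences with Biopython 1.88. Doublets were not removed. The fit was tested on simulated data.

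The members, lists and tests were chosen with earlier results of these data known. Genes are named if they are Cyp27a1 or Cyp2j5, are among up to 10 called members with the lowest adjusted p in a comparison (mean of at least 50 and no overlap), are among the 10 highest in the droplet classes, or have a group mean of at least 500. Outside this rule, Cyp2j9, Cyp2j12, Cyp39a1, Cyp4f18, Cyp2u1, Cyp2c70 and Cyp2d13 were named with their values known. All 4 sorted-cell records carry a title that names CCK+ cells; groups follow the cell type and treatment labels. GENCODE M21 coordinates are on GRCm38. Alternatives were other pseudocounts, a filter, equal library totals, no trend, mouse as a block, fits without each library or with only the groups compared, and other cell and class limits.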

Additional observations from a re-analysis of the deposited data

How the results depend on the processing

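The count of members called in CCK+ against CCK- cells over both states (32) ranged from 27 to 33 without each library and stayed within 1.5 times under all other alternatives. In fasted mice the count of 20 moved to 12 with equal library totals and 8 with only the groups compared, and to 7 to 21 without each library. In refed mice the range without each library was 22 to 30. For refeeding in CCK+ cells the count of 6 moved to 3 without the mean-variance trend, 0 with only the groups compared, and 1 to 7 without each library. In CCK- cells the count of 3 moved to 1 under each of the first 2, and to 2 to 4 without each library. With mouse as a random block the counts for the gates over both states, in fasted and in refed mice, for refeeding in CCK+ and CCK- cells and for the interaction were 32, 23, 31, 6, 3 and 0 and with mouse as a fixed block 32, 23, 30 and 0 for the comparisons within mice; no named call over both states or for refeeding was lost to pairing. The cause of these moves was not tested.

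The single fold change that turned its sign was the interaction of Cyp3a25, never called, which ranged from -0.61 to 0.0797 without each library. UMIs per 10000 of all members together were 7.74 and 8.25 in Cck-high cells with class limits at 50% and 200%, 7.17 in Tph1-high cells with limits at 200%, 6.59 with cells in 1 class only, and 14.7 in enterocyte-gene-high cells with more than 1500 genes, 12.2 with limits at 50% and 16.2 at 200%. Members near 0 normalized counts, and classes from 1 droplet library, limit what can be read from these values.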
